A study of Mus musculus with 19 samples.

Results

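The transcriptome of 3 wild-type (WT) mouse blastocysts was described from single-embryo RNA sequencing, taking 3 of the 19 embryos of the series and comparing them with no other group. The 3 are the embryos labelled WT at the blastocyst stage. Each came from in vitro fertilisation of gametes of WT B6D2F1 mice, a hybrid of C57BL/6 and DBA/2, and was cultured in KSOM, a simple medium for preimplantation embryos, at 37 °C under 5% CO2 until 96 hours after insemination. The other 16 embryos came from Alyref+/- or Gabpb1+/- crosses and are not analysed here. The zona pellucida was removed, each embryo was lysed alone, and diluted ERCC spike-in RNA, a set of synthetic transcripts, was added to the lysate. Polyadenylated RNA was then read from cDNA amplified over 16 PCR cycles. The labels give neither the embryos' sex nor whether they shared parents or a fertilisation, so the spread below is that between these 3 embryos.

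A blastocyst is a fluid-filled ball of cells with an outer epithelium, the trophectoderm, which will form the placenta, and an inner cell mass. The inner cell mass sorts into the epiblast, the source of the fetus, and the primitive endoderm, an epithelium that will line the yolk sac. The trophectoderm pumps ions and water inward to open the cavity and seals it with tight junctions. By this stage the mRNAs stored in the egg have largely been replaced by transcripts of the embryo's own genome.

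The deposited table held 53379 gene rows and 92 ERCC rows. Gene counts were 13961310, 15608299 and 15269240 in embryos 1, 2 and 3. Levels are given as TPM, which are counts divided by the summed exon length of the row and scaled to a total of 1000000 in each embryo over all gene rows, without the ERCC rows. A row was called detected at a TPM of 1 or more. Spread between embryos is given as the standard deviation (SD) of TPM, or as the SD of log2(TPM + 1), over the 3 embryos. Reads copied by PCR and counted with no molecular identifier do not each stand for a molecule. A count of 0 allows at most 0.192 to 0.215 counts per 1000000 (CPM) at these depths, counting error only. Embryo 1 stood apart from the other pair and held Xist beside Y-linked transcripts. Without it, protein-coding rows held 63.5% of TPM (63.1% with it), pseudogene rows 27.4% (27.5%) and mitochondrial rows 10.3% (10.4%).

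Detected rows numbered 16891, 16183 and 15415 in the 3 embryos, and 14165 were detected in every embryo. The embryo with the lowest gene count had the most detected rows. Of the 14165, 9699 were nuclear protein-coding genes (44.2% of the 21950 in the table), 2644 processed pseudogenes and 940 long non-coding RNA (lncRNA) rows. A further 34996 rows were detected in none. Few rows carried most of the signal. The 100 most abundant rows held 32.3% ± 0.903 of TPM (SD, n = 3), and 386, 369 and 343 rows made up 50% of it. By mean level, 115 rows stood at a TPM of 1000 or more and 8803 rows lay between 1 and 10. The first held 33.7% of TPM and the second 3.42%.

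By gene type, nuclear protein-coding genes made up 54.7% ± 0.896 of TPM (SD, n = 3) and 82.8% ± 0.449 of counts. The 13 protein-coding genes of mitochondrial DNA added 8.38% ± 0.265 of TPM. Rows annotated as pseudogenes, copies of genes that have usually lost their coding capacity, held 27.5% ± 0.802 of TPM but 9.65% ± 0.473 of counts. Hairpin precursors of microRNAs (miRNAs) held 4.34% ± 0.211 of TPM and 0.254% ± 0.0185 of counts, since the median row of that type is 89 bases long and the value is divided by length. LncRNA rows took 2.07% ± 0.168 of TPM, and ribosomal RNA rows, 356 with the mitochondrial ones, had no count in any embryo. In the plot of gene types the largest classes sit on top of each other in the 3 embryos, and the small nuclear classes do not.

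**Figure D1:**
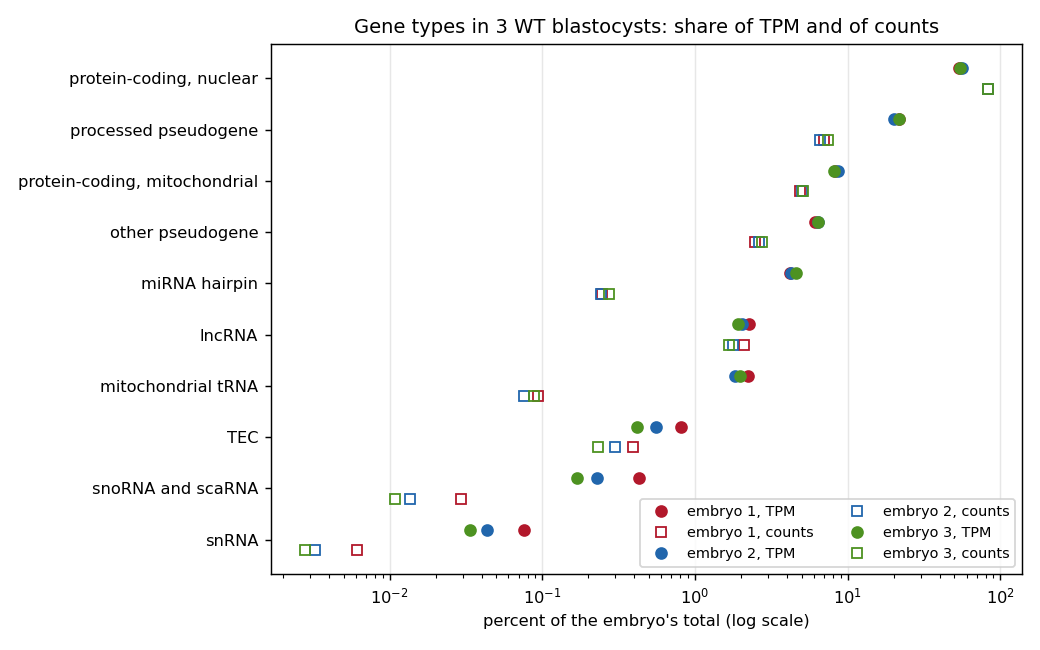
Share of each gene type in each WT blastocyst, as percent of TPM (filled circles) and percent of counts (open squares), on a log axis. Nuclear protein-coding genes lead on both scales, and the short miRNA hairpin and mitochondrial tRNA rows are far higher by TPM than by counts.

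Much of the TPM outside protein-coding genes lay in rows that share sequence or position with another gene. In pseudogene rows, 97.04% of TPM was in rows with at least 1 window of 50 bases, the length of read 1, identical to a protein-coding transcript, and 71.0% was in rows that shared 50% or more of their windows. In miRNA rows, 89.5% of TPM was in rows that overlapped an exon of another row, and for lncRNA rows the share was 73.1%. Protein-coding rows were not free of this. In nuclear ones, 54.8% of TPM was in rows with at least 1 window found in a transcript of a row of another type. Rows that shared 50% or more of their windows held 2.09%, and rows overlapping an exon of another row 30.5%. In mitochondrial protein-coding rows these shares were 70.7%, 64.9% and 82.5%. Reads that fall within a shared window or an overlap cannot be assigned to a row or its partner here. Rows that share only some windows also hold sequence of their own. How the deposited counts treat a read that fits several rows is not given in the sources used here.

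Single pairs show the size of the overlap. Gm28437, a pseudogene row on chromosome 1 at 24613189 to 24613971 (mm10), had 104532, 143229 and 150219 counts, against 103467, 141727 and 148636 for mt-Co3, which encodes a subunit of cytochrome c oxidase. Every 50-base window of Gm28437 also occurs in a protein-coding transcript. Gm28661 likewise followed mt-Co2, another subunit of that enzyme, at 100.2% of its counts in each embryo. Fabp3-ps1, on chromosome 10, stood at 38.2%, 38.1% and 37.8% of the counts of Fabp3. The 5 pseudogene rows of highest mean TPM were Gm28437, Gm29216, Gm10925, Fabp3-ps1 and Gm28661, and 4 of them shared 97.1% to 100% of their windows with protein-coding transcripts.

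The same held for short rows inside genes. The most abundant miRNA row, Gm23419, lies in an exon of the actin gene Actg1 and had 3530, 5735 and 6360 counts. The next, Gm22133, lies in Ftl1, a ferritin subunit gene, with 2615, 4801 and 5107. Among lncRNA rows, Gm26825 overlaps Gm15459, whose counts (7989, 7167 and 9010) nearly equal its own (8119, 7202 and 9158). Gm10076 led the lncRNA rows at a mean of 1128 ± 115 TPM (SD, n = 3), with a fraction of 0.699 of its windows shared with protein-coding transcripts. Malat1, a long RNA that stays in the nucleus, was second, at 790.5, 498 and 366 TPM, and overlaps 3 other rows. When only rows with no exon overlap and no shared window were kept, protein-coding genes made up 90.7%, pseudogenes 3.71% and lncRNA rows 1.36% of TPM.

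Among nuclear protein-coding genes, Dppa5a was the most abundant. It encodes an RNA-binding protein of pluripotent cells and stood at 8861, 9758 and 14598.5 TPM. Fabp3, a fatty acid carrier, followed at 6481, 10500 and 9742 TPM. Both were above every other nuclear protein-coding gene in every embryo, and embryo 1 was the lowest of the 3 for each. After them came Mt1, a metal-binding metallothionein, at a mean of 3245 ± 1504 TPM (SD, n = 3), Krt18 at 3212 ± 606, Cstb, a cysteine protease inhibitor, at 3117 ± 433, the galectin gene Lgals1 at 2993 ± 242 and the ubiquitin gene Ubb at 2929 ± 201.

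Dppa3, an egg and germ-cell factor that protects DNA methylation, was at 3803, 2560 and 1976 TPM. Its order across embryos was the reverse of that of Dppa5a. Actb, the cytoplasmic actin, was steady at 2581, 2528 and 2785 TPM. So were Gabarapl2, of the autophagy machinery, at 1978 ± 78.1 (SD, n = 3), and Cox8a, of cytochrome c oxidase, at 2773 ± 157. Calcoco2, a selective autophagy receptor, stood at 2695 ± 406. The chaperone Hsp90aa1, by contrast, ran from 2472 through 1963 to 1355 TPM, and its sister Hsp90ab1 from 2421 through 1214 to 968. In the plot of the 16 most abundant genes, the ranges of most neighbours below the leading pair overlap, so their order does not exceed the spread between embryos.

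**Figure D2:**
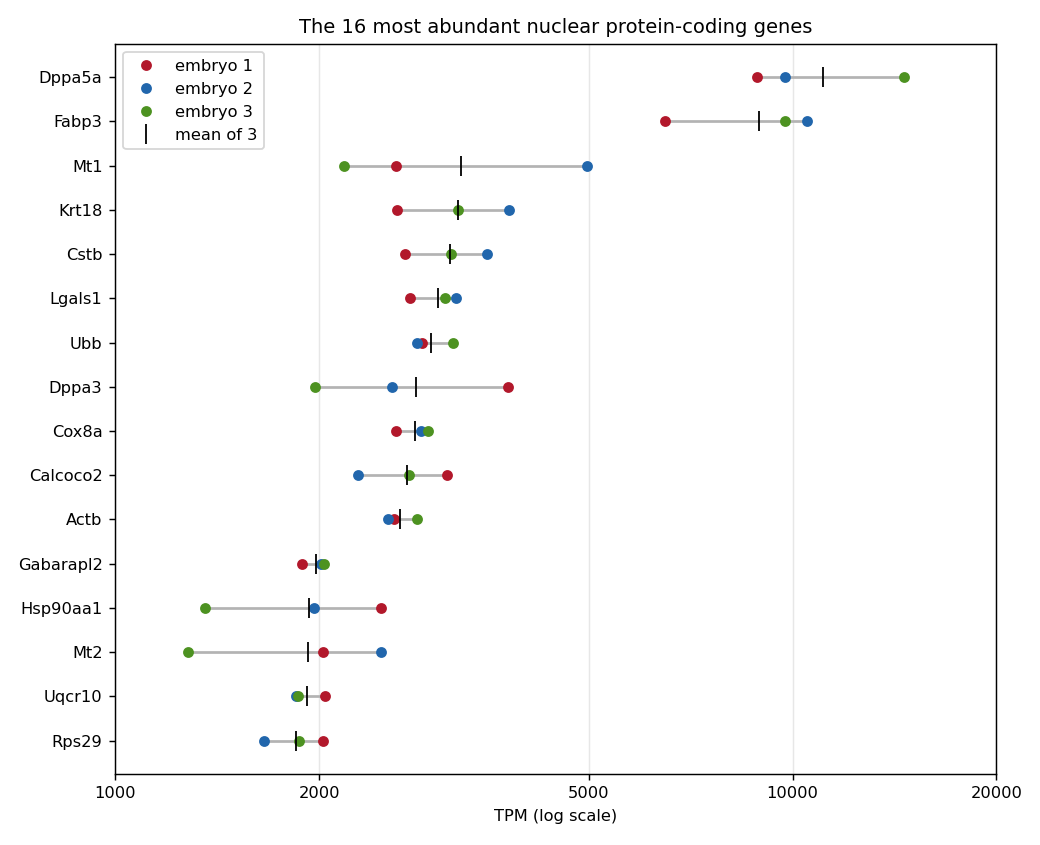
TPM on a log axis of the 16 nuclear protein-coding genes with the highest mean over 3 WT blastocysts; coloured points are embryos, black ticks are means and grey bars span the embryos. Dppa5a and Fabp3 stand above all others, and Mt1, Mt2, Hsp90aa1 and Dppa3 have the widest ranges.

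The 100 most abundant nuclear protein-coding genes held 27.4% ± 0.805 of nuclear protein-coding TPM (SD, n = 3), and 79 genes were in the top 100 of all 3 embryos. Of the 100 by mean, 17 encode proteins of the cytosolic ribosome and 17 encode nuclear subunits of oxidative phosphorylation (OXPHOS), the respiratory chain and ATP synthase. A further 6 belong to the actin cytoskeleton list, and 3 each to the proteasome, chaperone, antioxidant, trophectoderm and epiblast lists. None of the lists held 41 of the 100. The abundant genes were short: their median merged exon length was 1356 bases, against 3880 for all 10607 nuclear protein-coding genes at a mean TPM of 1 or more.

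Genes for making protein and energy were detected almost without exception. All 83 cytosolic ribosome genes were detected in every embryo, at 4.72%, 3.66% and 4.13% of TPM. Embryo 1 had the highest value for 74 of the 83 and embryo 2 the lowest for 76. Over all 16304 rows at a mean TPM of 1 or more, embryos 1, 2 and 3 were highest in 48.7%, 31.9% and 19.5% and lowest in 30.7%, 25.02% and 44.3%. Directions like these depend on the scale, so they were set beside values rescaled by edgeR's TMM factors and to the ERCC counts. The ERCC rows took 1.08%, 0.992% and 1.54% of all counts, so scaling to them shifted the median row by 0.10, 0.20 and -0.35 on the log2 scale in embryos 1, 2 and 3, and TMM by -0.07, 0.02 and 0.06. Embryo 1 stayed highest for 57 of the 83 with TMM and for 77 with ERCC scaling, where embryo 3 was the lowest for all 83, as it was for 80.1% of all rows. Rps29 and Rps27l, of the small ribosomal subunit, were at 1852 ± 183 and 1798 ± 112 TPM (SD, n = 3).

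All 78 nuclear OXPHOS genes and all 78 mitochondrial ribosome genes were also detected in every embryo. The OXPHOS genes took 4.05% ± 0.163 of TPM (SD, n = 3), with a median SD of log2(TPM + 1) of 0.12, against 0.18 for all rows at 300 to 1000 TPM, where their median level of 424 TPM lies. Cox8a, Uqcr10 of complex III and Cox6a1 of complex IV led them. The mitochondrial genome itself, all 37 rows, held 10.4% ± 0.2 of TPM. mt-Co3 stood at 15474, 19194 and 19307 TPM and mt-Co1, a further cytochrome c oxidase subunit, at 13632, 14418 and 15054. The third row, mt-Ts1, is a tRNA row of 69 bases that overlaps mt-Co1, with 9000, 7711 and 9180 counts against 179634, 209799 and 228388. Both mitochondrial rRNA rows were listed at 0.

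Proteasome genes, which encode the protease that degrades ubiquitin-tagged proteins, were detected in every embryo for 46 of 48, at 1.09% ± 0.0435 of TPM (SD, n = 3) and a median SD of 0.12 on the log2 scale, against 0.20 for all rows at 100 to 300 TPM. Psmb2, Psmb1 and Psma6, all of its core particle, led. Translation factors were detected for 60 of 68, led by Eif5a at 1599 ± 338 TPM and the elongation factor Eef1a1 at 1366 ± 80.7. Antioxidant genes were detected for 19 of 20. Gpx1, a glutathione peroxidase, was highest at 1231 ± 188 TPM, and Prdx1, a peroxiredoxin, was lower in embryo 1 at 463 TPM than in embryos 2 and 3 at 920.3 and 913. Histone genes were detected for 67 of 105 rows; H2afz, a variant histone made with a polyadenylated mRNA, led at 1274 ± 189 TPM.

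Genes that shape the cells were also abundant. All 20 actin cytoskeleton genes were detected in every embryo and held 1.15% ± 0.149 of TPM (SD, n = 3). Tmsb4x, an X-linked actin-binding peptide, varied widely at 857, 252 and 1439 TPM, as did Cap1, a regulator of actin turnover, at 75.9, 288 and 261. Embryo 3 was highest for 13 of the 20, but for 2 when values were scaled to ERCC counts, against 19.5% and 2.71% of all rows. Of the 50 keratin genes 4 were detected in every embryo. Krt18 and Krt8, the pair that forms the first intermediate filaments of the embryo, stood at 3212 ± 606 and 1484 ± 250.2 TPM, and Krt7 at 5.00, 20.6 and 16.1.

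The junction and polarity list was complete, with 21 of 21 genes detected in every embryo. Cldn7 and Cldn4, tight junction claudins, led at 409 ± 29.5 and 383 ± 71.3 TPM (SD, n = 3), followed by Ctnna1, the alpha-catenin of adherens junctions, at 162 ± 43.2. Embryo 3 was lowest for 15 of the 21, against 44.3% of all rows. It was lowest for 13 with TMM scaling (39.0% of all rows) and for 21 with ERCC scaling (80.1%). Of the 16 pumps and channels linked to the cavity, 11 were detected in every embryo. The water channel Aqp3 was at 101.5, 171.5 and 127 TPM, and Slc9a3r1, a scaffold of membrane transporters, at 119, 153.5 and 136. Aqp8, a further water channel, was 32.04, 84.8 and 95.8 TPM, again lowest in embryo 1. Cftr and Slc9a3 stood at or near 0.

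Glycolysis genes were mostly lower in embryo 1. Of the 21, 16 were detected in every embryo. Of the 16 with a mean TPM of 1 or more, 10 were lowest there and 2 highest, against 30.7% and 48.7% of all rows. Under ERCC scaling embryo 3 was lowest for 9 and embryo 1 for 6, against 80.1% and 14.4% of all rows. Aldoa, aldolase, was at 374, 483 and 509 TPM, Tpi1, triose phosphate isomerase, at 189.8, 343 and 377.5 and Gapdh, the next enzyme, at 97.9, 172 and 208. Ldha, lactate dehydrogenase, spread furthest, at 16.9, 69.1 and 86.4 TPM. Against that order, the glucose transporter Slc2a3 was highest in embryo 1, at 82.8, 77.1 and 56.5.

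Markers of all 3 lineages of the blastocyst were detected. Each value is from a whole lysed embryo, so fewer cells of a type and less RNA per cell cannot be told apart. Of 22 trophectoderm markers, 20 were detected in every embryo. Cdx2, the transcription factor that specifies trophectoderm, was even at 18.4, 16.7 and 16.2 TPM. Gata3, which acts beside it, was highest in embryo 1, at 144, 93.3 and 65.9, and Eomes was at 48.3, 28.9 and 34.7. The most abundant markers, Krt18, Dppa1 at 1501 ± 109 TPM (SD, n = 3) and Krt8, exceeded every listed transcription factor in every embryo. The other markers that are not transcription factors ranged from Cldn4 at a mean of 383 TPM to Krt19 at 4.29, so not all stood above the regulators. Hand1, a later trophoblast factor, was at 1.29, 0.16 and 0 TPM. Of the 21 markers at a mean TPM of 1 or more, 13 were highest in embryo 1, 8 in embryo 2 and 0 in embryo 3, where the shares over all rows were 48.7%, 31.9% and 19.5%.

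Epiblast and pluripotency markers were detected in every embryo for 19 of 20. Pou5f1, the core pluripotency factor also called Oct4, was at 43.3, 46.5 and 56.3 TPM, and Nanog at 93.3, 65.0 and 70.0. Sox2 was low and even, at 7.64, 8.77 and 7.57. Spp1, a secreted phosphoprotein, stood at 832, 1136 and 1135 TPM and Zfp42, known as Rex1, at 298, 181 and 164. Tdh, the threonine dehydrogenase of mouse pluripotent cells, was lowest in embryo 1 at 9.10 TPM, against 29.3 and 33.5, and so was Bmp4, a secreted signal, at 5.79, 23.3 and 11.5. Nodal, the ligand used after implantation, was the marker not detected, at 0.616 to 0.826 TPM.

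Primitive endoderm markers were detected in every embryo for 18 of 20 and were mostly lower in embryo 1. Their median TPM was 10.7, 19.5 and 18.8. Sparc, a secreted matrix protein, stood at 72.0, 222 and 162 TPM, and Serpinh1, the collagen chaperone, at 8.30, 24.6 and 24.8. The transcription factors ran in both directions. Gata6, which acts first in this lineage, was highest in embryo 1 at 90.7 TPM, against 47.8 and 42.3, whereas Sox17 (12.01, 20.05 and 27.1) and Gata4 (7.24, 10.7 and 16.8), which follow it, were lowest there. Of the 19 markers at a mean TPM of 1 or more, 11 were lowest in embryo 1, 15 with TMM scaling and 6 with ERCC scaling. Over all rows these shares were 30.7%, 36.9% and 14.4%. With ERCC scaling embryo 3 was lowest for 13 of the 19, against 80.1% of all rows. Amn, part of an endocytic receptor, stood at 3.18, 21.1 and 0.663 TPM, and Pdgfra, a growth factor receptor of the lineage, at 7.01, 7.12 and 7.51.

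**Figure D3:**
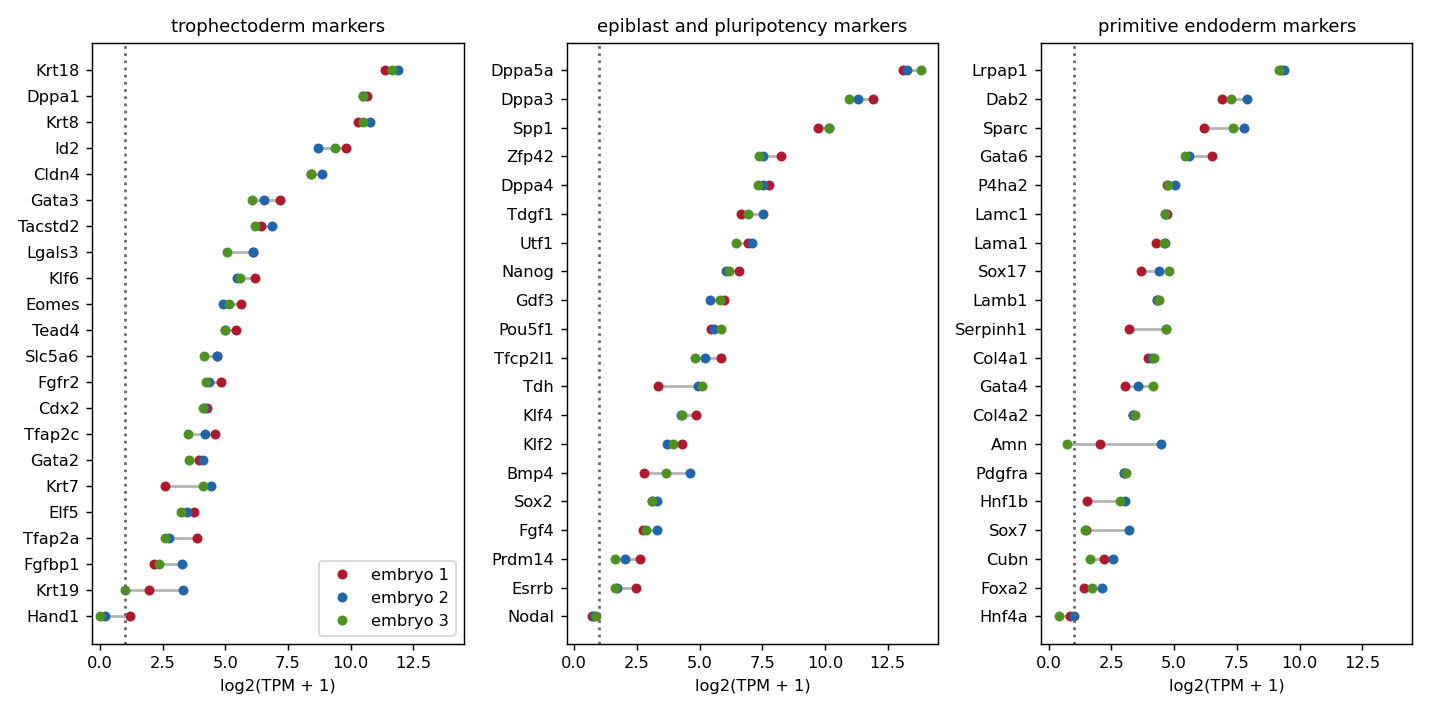
Log2(TPM + 1) of each listed lineage marker in each WT blastocyst; coloured points are embryos, grey bars span them and the dotted line marks a TPM of 1. Points below the line belong to Krt19 and Hand1 (trophectoderm), Nodal (epiblast), and Amn and Hnf4a (primitive endoderm).

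Other cell types that could cling to an embryo left little trace. Of 12 cumulus and granulosa cell markers 1 was detected in every embryo, Amhr2 at 1.64 to 3.05 TPM, and 5 had no count. None of 10 sperm markers and none of 10 blood cell markers was detected in every embryo. The globin gene Hba-a1 reached 1.18 TPM in embryo 2. Of 20 egg mRNAs, 4 were detected in every embryo. Khdc3 and Ooep, which encode parts of a complex under the egg's membrane, were at 642 ± 34.5 and 113 ± 43.5 TPM (SD, n = 3), and the other 18 had means of 3.08 or less. The Khdc3 row overlaps Gm20509, which had 5168, 6039 and 7008 counts against 11064, 11834 and 13690. Of 14 genes of the 2-cell stage, when the embryonic genome first becomes active, none was detected in every embryo.

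Large families of later tissues were all but silent. Of 1106 olfactory receptor rows, 923 had no count and 3 were detected in every embryo: Olfr1270, Olfr482 and Olfr77, each of which overlaps another row. Of 327 vomeronasal receptors 1 was detected, of 39 Hox genes 1, Hoxd8 at 2.04 ± 0.426 TPM (SD, n = 3), and of 64 defensins none. Zinc finger genes named Zfp, by contrast, were detected for 252 of 408. Solute carriers were detected for 168 of 375, near the 44.2% of all nuclear protein-coding genes, and were led by Slc25a5, the adenine nucleotide carrier of mitochondria, at 1405 ± 60.04 TPM. The genes deleted elsewhere in the series were both detected. Alyref, an mRNA export adaptor, was at 83.4, 113 and 112 TPM and Gabpb1, whose protein pairs with GABPA to form the factor GABP, at 9.94, 8.20 and 8.14.

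Promoter sequence was set beside abundance for the 16384 of 21950 nuclear protein-coding genes matched by symbol to a RefSeq start (GRCm38.p6), over the 250 bases before it. Genes with no count in any embryo had a mean of 4.06 CpG dinucleotides there. Genes at a mean TPM of 10 to 100 had 16.9. The motif CCGGAAG, the core bound by ETS factors such as GABP, occurred on either strand in 1.23% of the first and 18.1% of the second, against 9.40% of all 16384 (7.05% of the 27025 promoters in the reference). The GC box GGGCGG, which can overlap CpGs as CCGGAAG does, was in 13.9% and 59.4%, and in 44.2% of all 16384, and TATAAA in 26.1% and 6.01%, and in 11.96% of all. At 1000 TPM or more (37 genes matched) mean CpG was 13.3 and the CCGGAAG share 18.9%. Ribosomal protein genes carried CCGGAAG in 29.0% of 62 promoters, and olfactory receptors in 0 of 928.

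The 3 embryos were alike for most genes. Across the 16304 rows at a mean TPM of 1 or more, Pearson's r of log2(TPM + 1) was 0.974 for embryos 2 and 3, 0.952 for 1 and 2 and 0.947 for 1 and 3, with Spearman's rho of 0.958, 0.931 and 0.919. Each value is across genes, so its points share embryos and depth and are no replicates. The median absolute difference was 0.25 on the log2 scale between embryos 2 and 3, and 0.36 and 0.40 for the pairs with embryo 1. It was over 1 for 5.56% of rows between embryos 2 and 3, 9.73% between 1 and 2 and 13.7% between 1 and 3. Embryo 1 stands apart. Its level was the highest of the 3 for 48.7% of these rows and for 41.6% with TMM scaling. With ERCC scaling embryo 1 was highest for 48.2% and embryo 2 for 49.1%. No pair of libraries looked like 1 library deposited again: chi-square per degree of freedom over counts was 24.2 to 55.9, a check for duplicates only.

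The median SD of log2(TPM + 1) was 0.29, and 0.17 for embryos 2 and 3 alone. It fell with level, from 0.36 at a mean TPM of 1 to 3 to 0.18 at 300 to 1000. Spike-in RNA passes through the procedure after lysis, and each ERCC row was taken as its share of the embryo's ERCC counts. For rows with a mean of 10000 counts or more, the 5 ERCC rows had a median SD of log2 share of 0.038 and the 164 gene rows 0.20. Of those 164, 153 exceeded the highest ERCC row. The contrast is partly built in: these 5 ERCC rows are a large part of the total they were divided by, which narrows their spread. Each gene row is a small part of its total. The shares also leave out the difference in ERCC totals, which were 152033, 156355 and 239057 counts in embryos 1, 2 and 3. The share above the highest ERCC row did not change evenly with count. It was 33.0% of gene rows at 30 to 100 counts, 37.02% at 100 to 300, 63.6% at 300 to 1000 and 29.1% at 1000 to 10000. These ranges held 12, 9, 5 and 9 ERCC rows, and the highest of fewer rows tends to be lower, so the shares are not like for like.

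**Figure D4:**
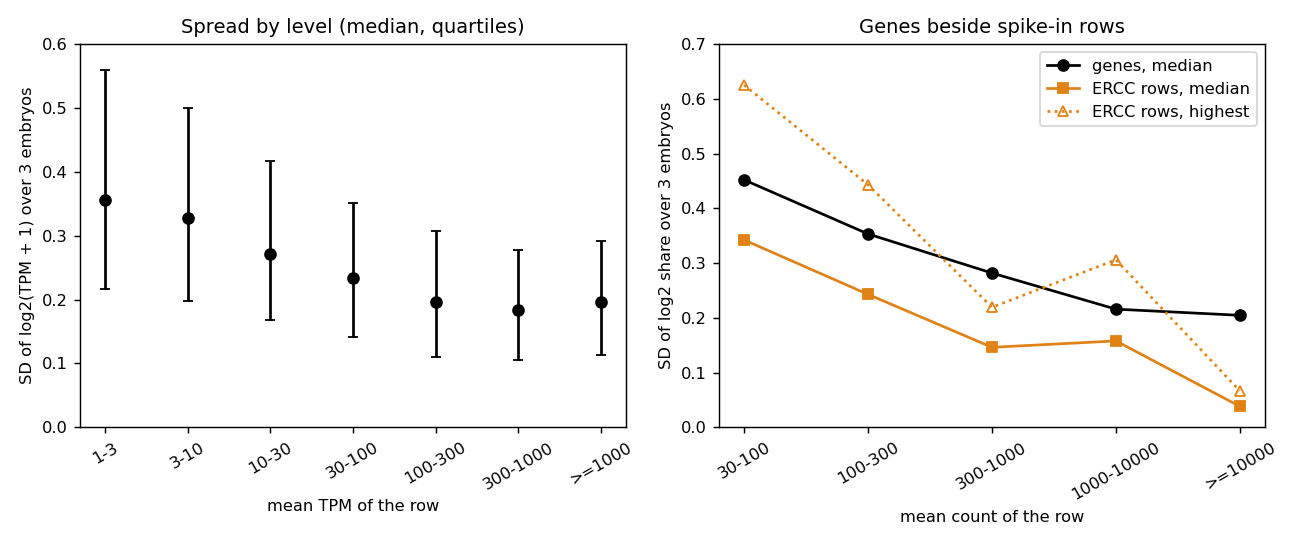
Left, SD of log2(TPM + 1) over the 3 WT blastocysts by mean TPM, as median and quartiles of rows. Right, SD of the log2 share of counts for gene rows (black, median) and ERCC rows (orange, median and highest) by mean count. The medians lie closest at 1000 to 10000 counts (0.16 and 0.22) and the gap between gene and spike-in medians is widest above 10000. There the ERCC rows make up a large part of the total they are shares of.

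The steadiest rows at a mean TPM of 100 or more were named by their SD. Uqcrh, a hinge protein of respiratory complex III, stood at 399.3, 398.01 and 398.6 TPM. Ptma, prothymosin alpha, stood at 759.6, 762.9 and 760.03. Serf2, the translation terminator Etf1, the ATP synthase subunit gene Atp5g2 and the actin-binding protein gene Tagln2 followed, with 4 pseudogene rows, Gm6542, Gm10175, Gm10231 and Gm9531. Their SD was between 0.00 and 0.01 on the log2 scale, and they were picked as the extreme of all rows at that level.

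At the other end, 655 rows, 4.02% of 16304, had an SD over 1, and 129 (1.72%) of the 7501 at a mean TPM of 10 or more. Among the 655, embryo 1 was the one apart and higher in 262 and lower in 74, and embryo 3 was the one apart and lower in 186. That lean of embryo 1 was not seen at a mean TPM of 10 or more. Among those 129 rows embryo 1 was apart and higher in 38 and lower in 33, and embryo 3 lower in 35. For the nuclear protein-coding genes among them, embryo 1 was higher in 19 and lower in 23. Rows of small RNAs were frequent among the 655. They were 143 of 448 miRNA rows and 89 of 277 snoRNA and scaRNA rows, against 191 of 10607 nuclear protein-coding genes. A TPM of 1 is about the level of 1 count in so short a row, and at a mean TPM of 10 or more 11 of 133 miRNA rows and 10 of 60 snoRNA and scaRNA rows passed. Of the 73 such protein-coding genes at a mean TPM of 10 or more (1.38% of 5293), 19 lie on the X chromosome (26.0%), where 3.31% of all 5293 lie. Without embryo 1 the count of rows with an SD over 1 was 414, and without embryo 2 it was 1061.

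Among the 10 rows with the largest SD were 6 Magea genes of 1 cluster on chromosome X, between 154924012 and 155093666. They encode melanoma antigen family proteins, best known from testis and tumours. Magea4 and Magea10, elsewhere on X, had at most 6 counts. Magea8 stood at 162, 2.13 and 0.309 TPM, from 2275, 33 and 5 counts. Magea5 was at 113, 0.3875 and 3.41 TPM and Magea3 at 93.4, 0.331 and 0.106. Over the cluster, embryo 1 had 6486 counts and embryos 2 and 3 had 60 and 75. From 39.0% to 75.9% of each gene's 50-base windows recur in another of the 6, so the split of reads between members is uncertain, and whether a read that fits several of them was counted more than once is unknown.

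The upstream regions of Magea8 and Magea2 are shown because these genes moved together and resemble each other there. Over 235 aligned positions they are 91.9% identical. The Magea1 and Magea3 regions are 85.5% identical over 248, whereas Magea2 and Magea3 align over only 67. Capitals mark CCGGAA and CGGAAG, the first and last 6 letters of CCGGAAG, chosen after the sequences were seen and searched on either strand. They occur in 12.2% and 13.8% of all RefSeq promoters over the same length, and CCGGAAG counts under both. The sequences run 5′ to 3′ toward the gene (GRCm38.p6, minus strand), Magea8 from chrX:154995851-154996100 and Magea2 from chrX:155033293-155033542.
Magea8: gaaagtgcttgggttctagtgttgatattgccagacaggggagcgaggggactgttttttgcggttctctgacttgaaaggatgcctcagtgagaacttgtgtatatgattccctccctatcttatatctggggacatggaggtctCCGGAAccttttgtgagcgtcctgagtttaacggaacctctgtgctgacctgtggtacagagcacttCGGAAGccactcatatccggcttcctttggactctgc
Magea2: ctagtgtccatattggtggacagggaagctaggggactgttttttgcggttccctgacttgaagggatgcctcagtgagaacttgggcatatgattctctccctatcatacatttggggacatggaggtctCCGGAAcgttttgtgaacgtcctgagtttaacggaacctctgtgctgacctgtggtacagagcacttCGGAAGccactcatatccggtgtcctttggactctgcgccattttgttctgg
Each holds 1 CCGGAA and 1 CGGAAG, at 104 and 37 bases before the start in Magea8 and at 119 and 52 bases in Magea2. A match is a description of the letters and not a site. The counted Magea2 row spans 155027201 to 155093666, so the printed Magea2 region lies inside that span. Whether the counted Magea2 reads began at this RefSeq start is not known here.

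Other X-linked rows also marked embryo 1. Xist, the RNA that coats and silences an X chromosome, stood at 26.7, 1.26 and 0.358 TPM, its antisense partner Tsix at 22.2, 1.64 and 1.12, and Ftx, a neighbour that activates Xist, at 5.14, 0.307 and 0.147. Xist and Tsix overlap, and without the strand of counting, which is not given in the sources used here, their reads cannot be told apart. Transcripts of the Y chromosome were present in every embryo. Eif2s3y, a translation factor subunit, was at 26.9, 53.2 and 48.9 TPM, Ddx3y, an RNA helicase, at 25.8, 30.5 and 19.3, Uty, a histone demethylase relative, at 3.95, 6.22 and 2.06 and Kdm5d, a histone demethylase, at 0.936, 1.39 and 0.759. Their X-linked partners were highest in embryo 1: Eif2s3x at 43.8, 36.2 and 29.1 TPM and Ddx3x at 66.3, 57.9 and 40.9. Embryo 1 thus had both Xist and Y-linked transcripts, and its summed Y-linked level over the 4 genes was 57.6 TPM, against 91.4 and 71.0. Whether this library holds RNA of 1 embryo only was not tested, nor was its part in the other differences of embryo 1.

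The Fthl17 genes, X-linked relatives of ferritin heavy chain, were also highest in embryo 1. Fthl17f was at 14.95, 0.8775 and 1.92 TPM and Fthl17c at 13.1, 0.999 and 0.240. All 6 members had their highest level there, against 48.7% of all rows. From 41.5% to 93.7% of the windows of each of Fthl17b to Fthl17f recur in another member. The split of reads between these genes is therefore uncertain, and they are not separate observations. Fthl17a shares no window with the others. Fthl17a, which lies apart from the rest, was well detected in every embryo at 55.0, 47.6 and 31.1 TPM. Rhox5, an X-linked homeobox gene, was at 56.4, 10.8 and 12.02 TPM. Nup62cl, a nucleoporin relative on X, went the other way, at 1.78, 40.3 and 64.1 TPM. Gm773, also on X, was high in embryo 3 alone, at 1.23, 0 and 42.9. On chromosome 12 the overlapping rows Gm28503 and 1700030C10Rik were highest in embryo 1, at 42.3 and 34.9 TPM, and lowest in embryo 2. Sord, sorbitol dehydrogenase, was named after its values were seen: it had 601, 969 and 12323 counts and 29.96, 43.7 and 534 TPM.

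**Figure D5:**
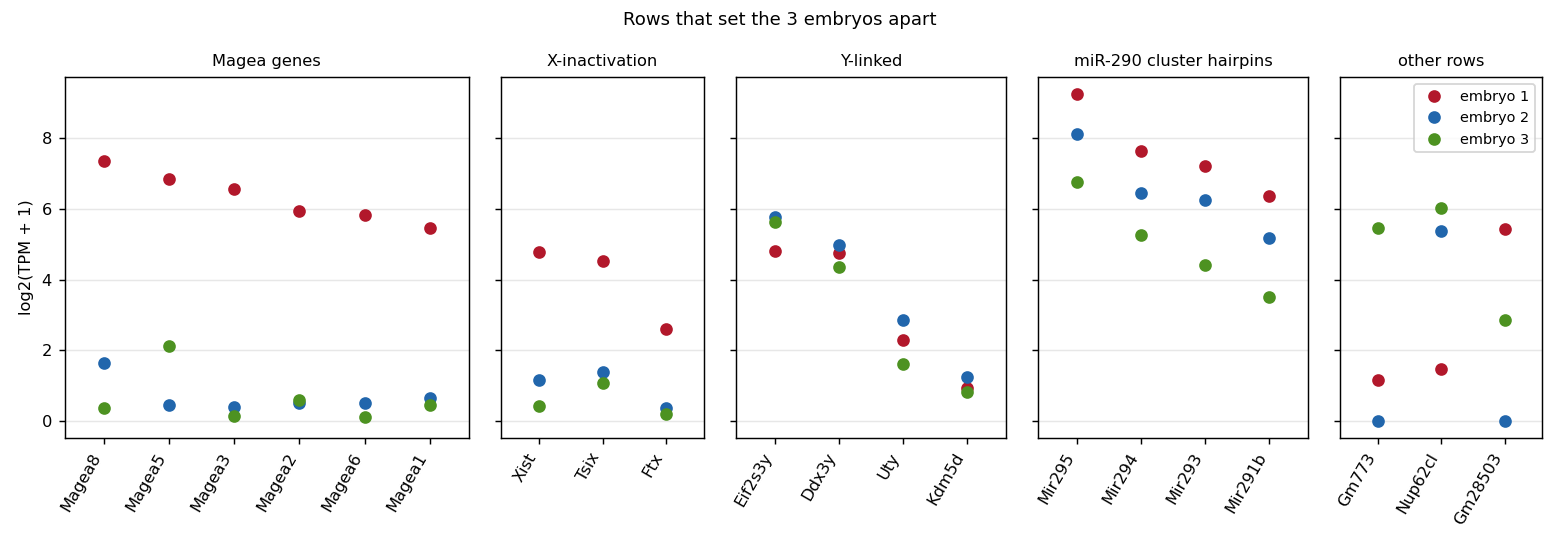
Log2(TPM + 1) in each WT blastocyst of the 6 Magea genes, 3 genes of the X-inactivation centre, 4 Y-linked genes, 4 hairpin rows of the miR-290 cluster and 3 further rows of large spread. Embryo 1 is above both others for the Magea genes, Xist, Tsix, Ftx and the hairpins, and within or below their range for the Y-linked genes.

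A pair of miRNA loci also ordered the embryos, 1 above 2 above 3. The miR-290 to miR-295 cluster makes the best known miRNAs of mouse pluripotent cells. Polyadenylated libraries hold the primary transcript and not the mature miRNA, so hairpin rows here count reads over the precursor. The 3′ arms are printed because 5 of these 6 share most of their seed, the bases that pair with targets. Capitals mark bases 2 to 8 (RefSeq, GRCm38.p6, chromosome 7, plus strand).
mmu-miR-291a-3p: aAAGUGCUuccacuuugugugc
mmu-miR-294-3p: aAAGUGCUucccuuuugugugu
mmu-miR-295-3p: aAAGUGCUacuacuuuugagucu
mmu-miR-290a-3p: aAAGUGCCgccuaguuuuaagccc
mmu-miR-291b-3p: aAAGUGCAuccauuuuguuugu
mmu-miR-293-3p: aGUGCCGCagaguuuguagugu
The first 3 have the same seed, AAGUGCU. miR-290a-3p and miR-291b-3p differ from it in the last base of the seed, and miR-293-3p has a different one.

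All 9 hairpin rows of the cluster, at 3218626 to 3220841 on chromosome 7, were highest in embryo 1, against 48.7% of all rows. Mir295 stood at 610.03, 275.4 and 108 TPM, from 359, 179 and 73 counts, Mir294 at 198, 86.0 and 37.6 TPM and Mir293 at 148, 75.7 and 20.4. Over the 9 rows the counts were 686, 347 and 128. The rows from Mir291a to Mir295 overlap an exon of Nlrp12, which had 1599, 805 and 325 counts, the same order, so the transcript that was read is not settled by these rows. The second locus lies in Sfmbt2, a Polycomb gene whose intron holds a large miRNA cluster. Its 119 miRNA rows summed to 473, 175 and 47 counts. Of the 96 with a count, 90 were highest in embryo 1, against 48.7% of all rows at a mean TPM of 1 or more. These rows hold few counts each and lie in the same gene, so they are not separate observations. Sfmbt2 itself had 1962, 1272 and 567 counts.

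Several small nuclear classes had that order as well. SnoRNA and scaRNA rows, guides for the chemical marking of other RNAs, held 0.427%, 0.229% and 0.168% of TPM. SnRNA rows, the RNAs of the spliceosome, held 0.0753%, 0.0436% and 0.0334% of TPM, and TEC rows, annotated regions whose status as genes is still to be checked, 0.804%, 0.554% and 0.418%. Malat1 fell in the same order. Of 19 host genes of snoRNAs, 17 were highest in embryo 1, against 48.7% of all rows, led by Gas5 at 130.5, 87.5 and 89.5 TPM. In these rows 71.3% of snoRNA and 86.8% of TEC TPM lay in rows overlapping an exon of another row. The depth of embryo 1 was the lowest, and thinning all embryos to that depth left 16891, 16181 and 15424 detected rows.

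The metallothionein genes differed between embryos in another order. Mt1 stood at 2596, 4965 and 2175 TPM and Mt2 at 2028, 2469 and 1281, with embryo 2 highest for both and embryo 3 lowest. These small proteins bind zinc and copper, and their genes are switched on through metal response elements. Mt1 and Mt2 share no 50-base window, so their reads are distinct, though Mt2 overlaps the antisense row Gm45774. Their upstream regions are shown with the core forms TGCGCNC and TGCACNC in capitals, on either strand, which occur in 12.6% and 10.2% of all RefSeq promoters over 250 bases. Both lie on chromosome 8, plus strand (GRCm38.p6), at chr8:94178839-94179088 and chr8:94172368-94172617.
Mt1: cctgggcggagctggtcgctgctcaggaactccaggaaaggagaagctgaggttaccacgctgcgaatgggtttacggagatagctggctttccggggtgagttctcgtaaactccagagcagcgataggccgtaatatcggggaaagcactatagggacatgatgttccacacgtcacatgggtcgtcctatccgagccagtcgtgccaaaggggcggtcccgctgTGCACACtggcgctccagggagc
Mt2: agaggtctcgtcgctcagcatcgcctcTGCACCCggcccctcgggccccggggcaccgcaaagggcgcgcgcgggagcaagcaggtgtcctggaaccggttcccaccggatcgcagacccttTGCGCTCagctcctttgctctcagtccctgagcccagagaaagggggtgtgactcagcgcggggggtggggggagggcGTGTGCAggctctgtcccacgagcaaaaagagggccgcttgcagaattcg
The Mt1 region holds 1 match, 23 bases before the start, and the Mt2 region holds 3, at 223, 128 and 50 bases before it. Only these 250 bases were searched, so the numbers do not count all such elements of either gene. The RefSeq starts also differ from those of the counted rows. The Mt1 row begins at 94179082, inside the printed region, and the Mt2 row at 94172664, beyond the end of its region.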

How the data were processed

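The authors deposited 1 table of counts per gene row for all embryos, with a merged exon length for each row. Although its name speaks of normalised values, the columns hold whole numbers with different totals and were used as deposited counts. The submitters' processing notes name Trim Galore, Trimmomatic, cutadapt, STAR, featureCounts and mm10. Versions, the strand setting and the handling of reads that fit several rows are not given in the sources used here. Counts of the 3 WT blastocysts were converted to TPM over 53379 gene rows, without the 92 ERCC rows, and spread was computed on log2(TPM + 1) with a pseudocount of 1 (Python 3.11.15, pandas 2.3.3). edgeR 4.0.16 gave TMM factors and the common biological coefficient of variation over the 3 embryos. Shared sequence was counted as identical 50-base windows of reference transcripts, and 53274 rows had a matched transcript. The conversion and the spread were tested on simulated data.

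No groups were compared and no significance test was made. The gene lists and the rows described were chosen with earlier results of these data known. Genes were named by rule: the 25 nuclear protein-coding genes, 3 mitochondrial rows, 5 lncRNA rows and 5 pseudogenes of highest mean TPM, the 3 highest members of a list, lineage markers, X-inactivation and Y-linked genes, Alyref and Gabpb1, and the 10 rows with the largest SD (mean TPM of 10 or more) and the 10 with the smallest (mean TPM of 100 or more). Other genes, among them Cap1, Ldha, Tmsb4x, Prdx1, Slc2a3, Rhox5, Sord, the Fthl17 genes and the miR-290 and Sfmbt2 loci, were picked after their values were seen. Motifs in printed sequences were also chosen after seeing them. Alternatives changed the detection level, length, pseudocount, filter, scaling, depth and embryos used. Some genes that this rule names are not reported here.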

Additional observations from a re-analysis of the deposited data

How the results depend on the processing

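No paired analysis was possible because no groups were compared and no test was made. Of 91 alternatives to the values reported, 60 moved them by less than the spread between embryos or, for counts, by less than 1.5 times. Among the 60 are the means with 1 embryo left out and the correlations of single pairs. Neither kind could be scored as moved, so the 60 overstate how stable the values are. With a detection level of 5 TPM, 8885 rows were detected in every embryo against 14165. Without length scaling (CPM), the top 100 rows held 20.9% and 803 rows made up 50%, and the shares were 87.8% for protein-coding genes, 1.84% for lncRNA, 9.65% for pseudogene and 5.10% for mitochondrially encoded rows. The median trophectoderm, epiblast and primitive endoderm markers were then at 76.2, 70.5 and 52.3 CPM. With the length of the longest transcript, the top 100 held 29.9%, and protein-coding, pseudogene, mitochondrial and ribosomal protein shares were 67.6%, 24.1%, 9.05% and 5.25%. Without mitochondrial rows the top 100 held 26.8%. Alternatives chosen after seeing the data kept only protein-coding and lncRNA rows (top 100 at 34.4%, mitochondrial share 12.9%, ribosomal protein share 6.41%) or rows with no overlap or shared window (protein-coding 90.7%, pseudogene 3.71%, lncRNA 1.36%).

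edgeR's common coefficient of variation was 0.45 on the log2 scale, beside the median SD of 0.29. It is 1 value fitted to the counts of all 16304 rows and not a median of row SDs, so the 2 measures are unlike. Rows with an SD over 1 numbered 1342 with a pseudocount of 0.1, 129 at a mean TPM of 10 or more and 191 among protein-coding genes, the last chosen after seeing the data. Restricted to markers detected in every embryo, the trophectoderm and epiblast medians were 35.5 and 51.03 TPM. Leaving out 1 embryo at a time gave 0.17 (without embryo 1) to 0.28 for the median SD and 414 (without embryo 1) to 1061 (without embryo 2) rows with an SD over 1. The other values of the landscape stayed within the spread or, for counts, within 1.5 times. For means over embryos this was fixed in advance, since dropping 1 of 3 embryos cannot shift a mean by a full SD. For the 146 named genes, leaving out 1 embryo moved 27 of 438 values by over 1.5 times. The longest-transcript length moved 60 of 146 beyond the spread and 11 of 146 by over 1.5 times. These are embryos of unequal likeness, and the causes were not tested. With thinned counts 620 of the 655 rows with an SD over 1 were kept, with TMM factors 605 and with ERCC scaling 617. Low counts limit the spread below a mean TPM of 3, where 7.33% of rows had an SD over 1.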
